A study of Mus musculus with 68 samples.

Results

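The genes described here encode the nuclear-encoded subunits of oxidative phosphorylation in the prefrontal cortex of young mice. They were chosen by name: all protein-coding genes whose symbol begins with Ndufa, Ndufb, Ndufc, Ndufs or Ndufv (the Ndufaf assembly factors left out), Uqcr, Cox4 to Cox8 or Atp5, together with Sdha, Sdhb, Sdhc, Sdhd and Cyc1, with a mean deposited value of at least 5 over the libraries. Among 18088 genes with deposited values, 83 qualified: 38 for complex I, 4 for complex II, 9 for complex III, 15 for complex IV and 17 for complex V. All 83 passed the filter on low values, and Cox7b2, Cox8b, Cox8c and a further gene ID of Atp5o were not analysed here. Names do not settle membership in every case: Ndufa4 is now assigned to complex IV, Ndufa4l2 is its paralogue, Cox7a2l acts in the joining of complexes into supercomplexes, Ndufab1 is also the mitochondrial acyl carrier protein, and Atp5s is coupling factor B.

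The RNA came from C57BL/6J mice that were heterozygous for Adnp (labelled HT) or wild type (WT). Adnp encodes a chromatin-associated zinc finger protein, and the labels do not say how its altered allele was made. Pups received vehicle, fluoxetine (a serotonin reuptake inhibitor) or lithium from postnatal day 3 to day 24, about 3 weeks, through their mother's milk, and tissue was taken at day 25 in every group. The 68 polyadenylated RNA libraries fall into 12 groups by genotype, drug and sex. WT vehicle had 8 female and 7 male libraries, HT vehicle 8 and 8, WT fluoxetine 5 and 5, HT fluoxetine 5 and 5, WT lithium 5 and 3, and HT lithium 4 and 5. The labels give neither the litters nor the dose that each pup took in, and they say only that replicates are separate samples. The p-values therefore measure the spread between libraries, pooled over the 12 groups in the main fit, and treat the libraries as independent. Pups of the same litter, which would share the mother that passed on the drug, cannot be identified. In whole tissue, fewer cells of a type and less RNA per cell cannot be told apart.

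Oxidative phosphorylation is carried out by protein complexes in the inner mitochondrial membrane. Complex I takes electrons from NADH and complex II from succinate, complex III passes them from ubiquinol to cytochrome c, and complex IV hands them to oxygen, while the proton gradient so built drives ATP synthesis by complex V. Most subunits are encoded in the nucleus and imported, a few are encoded in mitochondrial DNA, and complex II is wholly nuclear. Neurons depend heavily on this pathway, because ion pumping after synaptic activity consumes much ATP.

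The promoter sequences next to 5 members are shown as a description. For each complex the member with the smallest p for genotype under lithium was taken that had an entry with enough sequence before the annotated gene. Each run is 80 bases, 5′ to 3′ on the gene's strand, and ends before both the RefSeq start and the first base of the GENCODE gene (RefSeq entries, build GRCm38.p6). Capitals mark letters of the CCAAT box or of the core of the ETS family motif bound by GABP (nuclear respiratory factor 2).
Ndufs5: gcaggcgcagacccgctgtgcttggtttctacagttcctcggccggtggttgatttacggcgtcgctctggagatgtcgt
Sdhb: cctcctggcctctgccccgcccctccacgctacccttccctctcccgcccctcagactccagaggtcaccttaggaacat
Uqcrh: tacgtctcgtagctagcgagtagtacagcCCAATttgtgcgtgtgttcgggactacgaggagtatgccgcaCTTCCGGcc
Cox6b1: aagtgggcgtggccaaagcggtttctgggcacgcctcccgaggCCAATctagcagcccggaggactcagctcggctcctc
Atp5o: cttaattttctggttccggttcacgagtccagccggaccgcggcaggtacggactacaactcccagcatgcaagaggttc
The runs lie at chr4:123718203-123718282 on the minus strand for Ndufs5, chr4:140961123-140961202 on the plus strand for Sdhb, chr4:116075072-116075151 on the minus strand for Uqcrh, chr7:30626152-30626231 on the minus strand for Cox6b1 and chr16:91931688-91931767 on the minus strand for Atp5o. Of the 83 members 67 had a promoter entry, 2 of them through an older symbol, with 250 bases before and 50 after the start. On either strand of these 300 bases, the ETS letters CCGGAAG were present in 15 of 67 members (22.4%) and in 9.12% of all 27025 promoters. The YY1 letters AAGATGGCG, which can share their first 3 bases with the end of the ETS letters, were present in 6 members (8.96%) against 1.49% of all promoters. The palindromic letters of nuclear respiratory factor 1 were present in 5 members (7.46%) against 0.98%, TCAAGGTCA of the estrogen-related receptor in 2 (2.99%) against 0.41%, and CCAAT in 29 (43.3%) against 37.9%. A match of letters is a description of the sequence and not a measured binding site. The printed runs cover only part of these 300 bases and stop 68 bases before the RefSeq start for Sdhb, 57 for Atp5o and 37 for Cox6b1. Sdhb held the ETS letters and CCAAT in the 300 bases but not in its run, and Cox6b1 likewise the ETS letters. Of the 20 members with an entry that were lower in HT under lithium, 6 held the ETS letters, 3 the YY1 letters, 1 those of nuclear respiratory factor 1, none those of the estrogen-related receptor and 10 CCAAT, and of the other 47 these numbers were 9, 3, 4, 2 and 19.

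The authors' values were read counts divided by a size factor for each library, and the counts recovered from them summed per library to between 22.4 M and 37.5 M reads (median 30.7 M, where M is the mega prefix). Adnp itself averaged 2261 ± 285 normalized reads in HT vehicle (SD, n = 16) and 1829 ± 361 in WT vehicle (n = 15), 1899 ± 245 and 1519 ± 200 under fluoxetine (n = 10 each), and 2307 ± 159 (n = 9) and 1962 ± 179 (n = 8) under lithium, a gene-level value that does not check the genotype labels. Levels of pseudogenes split the libraries into 3 sets that the labels do not name. Every fluoxetine library was in set 1, beside 8 from HT vehicle. Every lithium library was in set 2, beside 6 from HT vehicle and 5 from WT vehicle. In set 3 were 10 from WT vehicle and 2 from HT vehicle. Fluoxetine and WT vehicle therefore never share a set, whereas HT and WT lithium always do, so each comparison was made over all libraries and again within a set that holds both sides. Markers of neighbouring regions were present at levels that varied many-fold within groups: the summed level of 8 olfactory bulb genes ran from 599 to 31155 normalized reads over the libraries other than those named next, and that of 10 striatal genes from 5541 to 24811.

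WT lithium female replicate 5 and WT lithium male replicate 2 stood apart in the genes described here and were noticed from those genes. The mean over the 83 members of log2(value + 1) was 11.19 in the female and 11.20 in the male library, whereas the other 6 WT lithium libraries lay between 10.88 and 10.97 and none of the other 66 libraries exceeded 10.99. The members took 1.12% and 1.09% of all normalized reads in those libraries and at most 0.979% in any other. For 69 of 83 members one of these libraries held the highest value of all 68, as it did for 9.26% of all tested genes. Their sums of 82 cytosolic ribosomal protein genes, 78 mitochondrial ribosomal protein genes and 14 proteasome core genes also exceeded those of the other 66 libraries. Markers of choroid plexus summed to 5902 in the female library and 136 in the male library, against 59.5 to 1666 elsewhere. The part of these features in the results was not tested, and counts and differences of members that use WT lithium are given with and without both libraries. Both were picked for high values of the members, so leaving them out lowers the members' WT lithium mean by construction. Fewer calls without them are therefore no independent check.

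**Figure D1:**
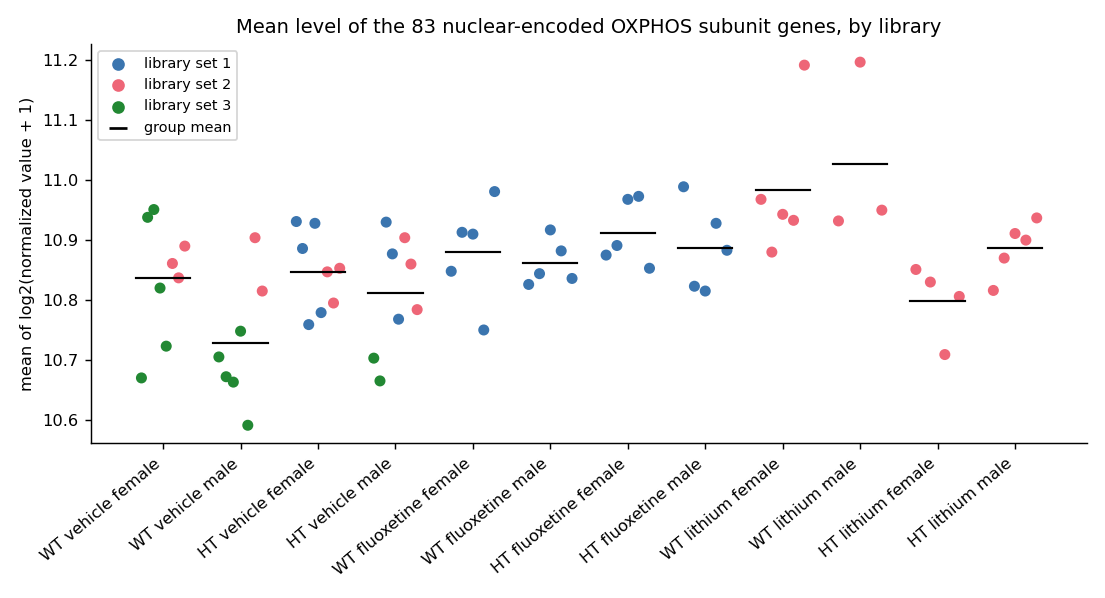
Each point is a library, placed by group on the x axis and by the mean log2(normalized value + 1) of the 83 member genes on the y axis, with colour for the library set and a line at the group mean. WT lithium female replicate 5 (11.19) and male replicate 2 (11.20) lie above all other libraries, and set 3 libraries fill the lower end in WT vehicle male.

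The members' mean level differed little between the vehicle and fluoxetine groups of sets 1 and 2. It was 10.86 ± 0.04 in WT vehicle of set 2 (SD, n = 5), 10.84 ± 0.04 in HT vehicle of set 2 (n = 6), 10.86 ± 0.08 in HT vehicle of set 1 (n = 8), 10.87 ± 0.06 in WT fluoxetine (n = 10) and 10.90 ± 0.06 in HT fluoxetine (n = 10). Under lithium it was 10.85 ± 0.07 in HT (n = 9) and ran from 10.88 through a median of 10.95 to 11.20 in WT (SD 0.12, n = 8). WT vehicle of set 3 was the lowest of the larger groups at 10.75 ± 0.12 (n = 10), with a range of 10.59 to 10.95 that overlapped those of the groups above. For complex II set 3 WT vehicle averaged 11.44 ± 0.11 and set 2 WT vehicle 11.71 ± 0.04, while for complex IV the values were 10.18 ± 0.16 and 10.24 ± 0.06.

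Levels of single members were compared per kilobase of transcript, as the mean normalized value over the 68 libraries. Complex IV had both the highest and the lowest member. Cox8a, the subunit 8 isoform expressed in most tissues, reached 18309 per kb, followed by Cox4i1 at 14655 and Cox6a1 at 13194. The isoforms known from heart and muscle, lung or testis were far lower: Cox6a2 at 213, Cox6b2 at 46.4, Cox4i2 at 40.9 and Cox7a1 at 33.4, against 7338 for Cox6b1 and 3902 for Cox7a2. Per kb Cox6c was at 5926, Cox7b at 2974 and Cox7a2l at 2940. In complex V, Atp5b, the catalytic beta subunit, led at 14081 per kb and Atp5s was lowest at 192. Of the 3 genes that encode the same mature c-ring subunit, Atp5g3 was at 5905 per kb, Atp5g1 at 822 and Atp5g2 at 286. Every value per kb depends on the transcript chosen. The length used for Atp5g1, 4715 bases, was the longest of any member, and those for Ndufb2 and Ndufab1 were 4371 and 3479 bases.

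In complex I, as grouped by name, the highest member per kb was Ndufa4 at 8067, and its paralogue Ndufa4l2, known as a hypoxia-induced gene, was the lowest at 81.1. Leaving out Ndufa4, now assigned to complex IV, and Ndufa4l2, the range was from 247 for Ndufb2 to 4701 for Ndufb9. In complex III the range was narrow, from 1864 per kb for Uqcrq to 5830 for Uqcrh, with 2659 for Cyc1, the cytochrome c1 gene. Before division by length the lowest of complex III was Uqcrb at 1457, against 2835 for Uqcrq with its 1521 bases. In complex II the flavoprotein Sdha was at 3449, the iron-sulfur subunit Sdhb at 2440 and the membrane anchors Sdhd and Sdhc at 1636 and 612. Sdhd and Sdhc averaged 2013 and 1940 before division by their lengths of 1231 and 3171 bases. The median member per kb was 1834 in complex I, 2038 in complex II, 2724 in complex III, 4111 in complex IV and 3757 in complex V. Subunit genes have many processed pseudogenes and, for isoforms, near-identical coding stretches, so the split of reads between such copies is uncertain.

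**Figure D2:**
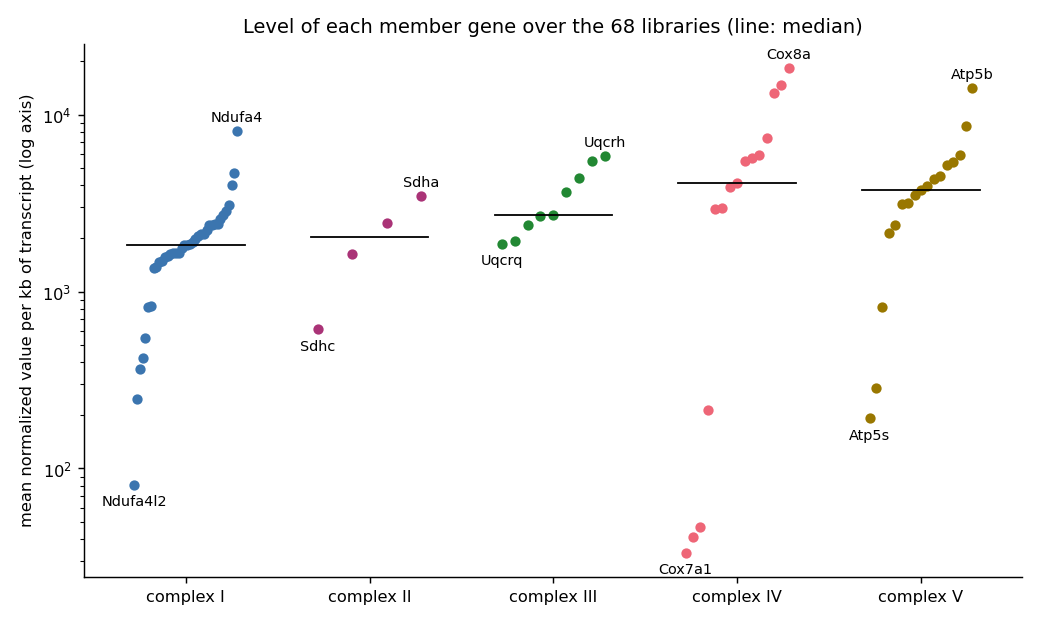
Each point is a member gene, grouped by complex on the x axis, and the log y axis gives its mean normalized value per kb of transcript over the 68 libraries, with a line at the median of the complex. Complex IV spans from Cox7a1 (33.4) to Cox8a (18309), the widest range of the 5 complexes.

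Under lithium, HT and WT libraries differed in genes of every complex. HT libraries had lower values for 79 of 83 members, with a median log2 difference of -0.17 against 0.00 over all 17922 tested genes, which is measured between 9 HT and 8 WT libraries of the same set. In limma 21 members were lower and 1 was higher at an adjusted p under 0.05, the threshold used throughout. Of all tested genes 1.03% were lower and 1.48% higher. Complex IV had the lowest median, -0.24, with 6 of 15 members lower, and the medians of the others were -0.16 for complex I (9 of 38 lower), -0.14 for complex II (1 of 4), -0.17 for complex III (1 of 9) and -0.17 for complex V (4 of 17). With the spread taken within group and set, 41 members were lower and 1 higher (2.34% and 2.15% of all tested genes), and these 41 included all 21 of the first fit. Without the 2 libraries that stand apart, the median was -0.10, 76 of 83 members were still negative, and no member passed in limma over all libraries (0.770% of all tested genes did in either direction, and 27 members had an unadjusted p under 0.05). Within the set, without them, 2 members were lower, Atp5j2 and Atp5k (0.407% of all tested genes were lower and 0.703% higher). The libraries left out were picked for high member values, which makes the difference smaller by construction.

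Single libraries on either side moved that count. In place of 22 members over all libraries, 2 were called without WT lithium male replicate 2, 8 without HT lithium female replicate 3, 9 without WT lithium female replicate 5 and 11 without HT lithium male replicate 1. The shares of all tested genes in these fits are not given here, so whether the changes are particular to the members is not shown.

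In complex I the smallest p belonged to Ndufs5, an accessory subunit of the arm facing the intermembrane space. Its normalized values were 1636, 1731, 1809, 1709 and 2198 in WT lithium females and 1542, 2081 and 1756 in males. In HT they were 1292, 1754, 1299 and 1405 in females and 1366, 1534, 1564, 1538 and 1527 in males. The highest values were those of the apart WT libraries, and the groups overlapped, since HT female replicate 2 lay above 4 WT libraries. The log2 difference was -0.29 ± 0.07 (SE, adjusted p = 0.0102), and without both apart libraries it was -0.20 ± 0.07 (adjusted p = 0.321). Other complex I members lower in HT were Ndufs4 (-0.28) and Ndufs6 (-0.25), accessory subunits near the NADH-oxidising module, and Ndufa1, Ndufa4, Ndufa5, Ndufa13, Ndufb9 and Ndufb11, whose differences ran from -0.34 for Ndufa1 to -0.24 for Ndufa5. These 8 differences ran from -0.22 for Ndufa1 to -0.14 for Ndufa5 without the apart libraries, and none passed.

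In complex II only Sdhb passed. Its values were 2844, 2691, 2937, 2858 and 3554 in WT lithium females, 3022, 3375 and 2809 in WT males, 2651, 2777, 2402 and 2575 in HT females, and 2692, 2745, 2819, 2776 and 2873 in HT males. The 2 apart libraries were highest and 3 HT females lowest, and the other HT libraries lay in the range of the WT libraries. The log2 difference was -0.16 ± 0.05 (adjusted p = 0.0388) and -0.10 ± 0.05 without the apart libraries (adjusted p = 0.605).

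In complex III only Uqcrh passed, the hinge protein that binds cytochrome c1. WT lithium females had 3314, 3296, 3351, 3089 and 4269 normalized reads and WT males 3065, 4385 and 3546. HT females had 2692, 3281, 2341 and 2748 and HT males 2805, 2952, 3104, 2913 and 3073. Apart from HT female replicate 2 and 2 HT males, every HT value lay below every WT value. The difference was -0.31 ± 0.08 (adjusted p = 0.0126) and -0.20 ± 0.08 without the apart libraries (adjusted p = 0.385).

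In complex IV the leading gene was Cox6b1, a subunit at the interface of the complex IV dimer. WT lithium females had 5291, 4954, 5319, 5139 and 6279 normalized reads and WT males 5301, 6250 and 5204, while HT females had 4456, 4174, 3906 and 4298 and HT males 4476.8, 4766, 4983, 5004 and 4968. The groups met only at WT female replicate 2, which lay below 3 HT males. The log2 difference was -0.28 ± 0.06 (adjusted p = 0.00315) and -0.21 ± 0.06 without the apart libraries (adjusted p = 0.133). Cox7a2 (-0.29), Cox8a (-0.26), Cox7b (-0.25), Cox5b (-0.24) and Cox5a (-0.19) were also lower. These 5 ran from -0.20 for Cox8a to -0.12 for Cox5a without the apart libraries, and none passed.

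Cox6b2, the isoform known from testis, was the only member higher in HT. Its values were low throughout: 17.2, 17.9, 17.6, 20.8 and 27.5 in WT females, 8.91, 10.6 and 30.7 in WT males, 37.9, 34.4, 31.4 and 27.8 in HT females, and 34.9, 29.1, 18.2, 20.6 and 24.4 in HT males. All 4 HT females exceeded all 5 WT females, and the males overlapped. The difference was 0.72 ± 0.18 (adjusted p = 0.0183) and 0.67 ± 0.20 without the apart libraries (adjusted p = 0.113).

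In complex V the leading gene was Atp5j2, the f subunit of the membrane sector. WT lithium females had 2712, 2427, 2592, 2429 and 2862 normalized reads and WT males 2633, 3056 and 2499, while HT females had 2240, 2129, 2135 and 2300 and HT males 2297, 2166, 2339, 2353 and 2378. Every HT value lay below every WT value. The difference was -0.24 ± 0.05 (adjusted p = 0.00175). Without both apart libraries it was -0.18 ± 0.05, with an adjusted p of 0.0992 over all libraries and 0.0393 within the set.

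Atp5k, the e subunit at the dimer interface of ATP synthase, had the most negative difference of the 83 members. WT lithium females had 1905, 1542, 1734, 1798 and 2345 normalized reads and WT males 1610, 2195 and 1940. HT females had 1079, 1486, 883 and 1352 and HT males 1282, 1427, 1518, 1638 and 1541. Only HT male replicate 4 lay above the lowest WT library. The log2 difference was -0.51 ± 0.11 (adjusted p = 0.00484), and without the apart libraries -0.41 ± 0.12 over all libraries (adjusted p = 0.116) and -0.41 ± 0.10 within the set (adjusted p = 0.0217). Atp5o, the stalk subunit that confers oligomycin sensitivity (-0.17), and Atp5h, the d subunit of the same stalk (-0.19), were also lower. Atp5o was at -0.11 and Atp5h at -0.10 without the apart libraries, and neither passed.

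**Figure D3:**
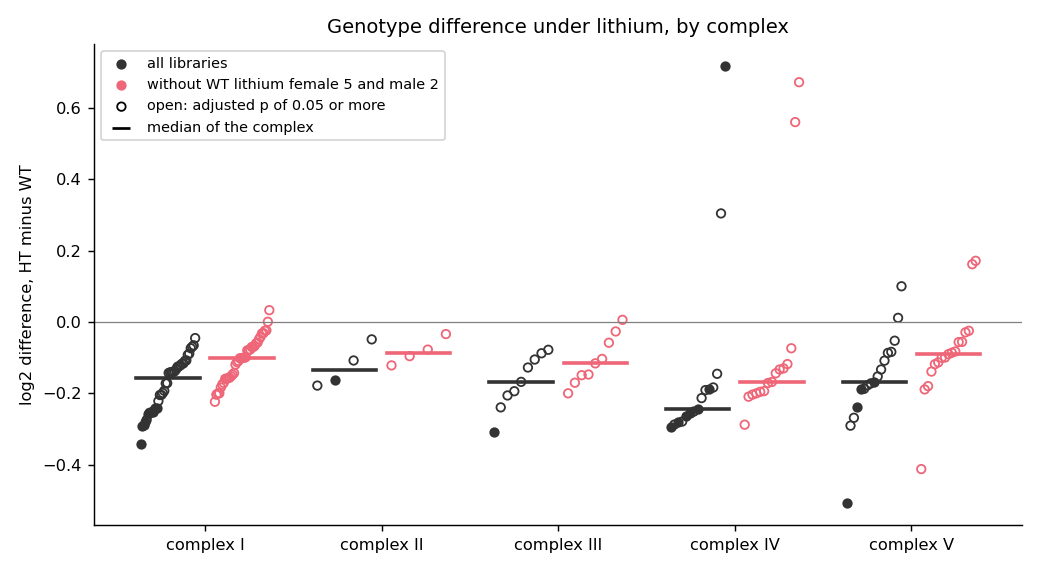
Each point is a member gene, grouped by complex on the x axis, with the log2 difference HT minus WT under lithium on the y axis, over all libraries (dark) and without WT lithium female 5 and male 2 (red). Filled points have an adjusted p under 0.05, open points do not, and lines are medians. Most points lie below 0 in both, the red medians lie nearer 0, and no red point is filled.

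Related gene groups gave the following counts in the same comparison over all libraries. Of 82 cytosolic ribosomal protein genes 18 were lower (median -0.20), led by Rpl29 (-0.17 ± 0.04, adjusted p = 0.00326). Of 78 mitochondrial ribosomal protein genes 4 were lower (median -0.11), led by Mrps21 (-0.24 ± 0.05, adjusted p = 0.00152). Of the assembly factors 1 of 45 genes was lower, Uqcc2 of complex III (-0.26 ± 0.06, adjusted p = 0.0126). Of 16 import genes 1 was lower, Tomm7 of the outer membrane translocase (-0.33 ± 0.08, adjusted p = 0.00895), and 2 of 14 proteasome core genes were, Psma7 and Psmb6. None of 16 citrate cycle genes (median -0.06), 14 transcriptional regulators of mitochondrial genes (0.02), 4 electron carriers (-0.10) or 13 mitochondrially encoded subunits (-0.13) passed in limma. Within the set and without the apart libraries, 1 of 14 proteasome core genes was lower, none of the other lists in this paragraph so far had a member that passed, and the cytosolic ribosomal median was -0.13. No cell type list had more than 1 member that passed over all libraries: astrocyte Gjb6 (-0.46), interneuron Npy (-0.27) and oligodendrocyte precursor Pdgfra (-0.27) were lower. The lists with medians furthest below 0 were choroid plexus (-0.28, 5 of 6 negative), oligodendrocyte precursors (-0.18, 4 of 6), olfactory bulb (-0.14, 6 of 8), mural cells (-0.12, 6 of 7) and astrocytes (-0.11, 7 of 8). Without the apart libraries these were at -0.10, -0.18, -0.40, -0.15 and -0.14, with 8 of 8 astrocyte genes negative and 1 lower within the set, where the members' median was -0.10. The summed astrocyte markers ran from 137130 to 172800 in HT lithium and from 144020 to 179870 in WT lithium, and those of oligodendrocyte precursors from 7899 to 11851 and from 9051 to 12161. In the same order, interneuron sums were 23253 to 27096 and 24447 to 28879, and those of excitatory cortical neurons 178620 to 221610 and 191460 to 229980. Microglia had 10629 to 13809 and 11401 to 13298, endothelium 7004 to 9025 and 7062 to 8996, and myelinating oligodendrocytes 110200 to 217230 and 109150 to 213280. The 10 striatal genes had a median of 0.48 with none passing, and their sum ran from 8178 to 22517 in HT lithium and from 7459 to 15251 in WT lithium. The part of these lists in the members' difference was not tested.

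Members are short genes, and the other short genes had a median on the same side of 0. The members' median transcript length was 861 bases, and 49 of 83 (59.0%) were under 1 kb, against 8.06% of all tested genes. For genotype under lithium the 49 short members had a median of -0.21 and the 1395 other genes under 1 kb had a median of -0.09, whereas the 5227 other genes of 4 kb and over had 0.05. Without the apart libraries these medians were -0.15, -0.05 and 0.02. Over all libraries, the 26 members of 1 to 2 kb had a median of -0.14 and the 3881 other genes of that length -0.05. The 6 members of 2 to 4 kb had -0.06, against -0.01 for 7325 other genes, and the 2 members of 4 kb and over had -0.15. The part of length in the members' difference was not tested.

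In the separate sexes, the female contrast under lithium had 4 members lower (0.156% of all tested genes lower, 0.407% higher), with Atp5k at -0.65 ± 0.15 (adjusted p = 0.0204) and Cox6b1 at -0.36 ± 0.08 (adjusted p = 0.0157) the leading genes of their complexes. The male contrast had no member past the threshold in limma (0.0614% of all tested genes were lower and 0.218% higher, and 22 members had an unadjusted p under 0.05). The medians were -0.19 in females and -0.16 in males, and 79 of 83 members were negative in each. Of the apart libraries, 1 is among the 5 WT lithium females and 1 among the 3 males. Without them no member passed in limma in females (median -0.14, 28 members at an unadjusted p under 0.05, 0.346% of all tested genes called in either direction) or in males (median -0.08, 1 member, 0.151%). Atp5k was then at -0.56 ± 0.16 (adjusted p = 0.135) and Cox6b1 at -0.30 ± 0.08 (adjusted p = 0.118) in females. The difference between the sexes was itself tested, and limma, edgeR and DESeq2 each called 0 members (limma called 0% of all tested genes), and limma found none at an unadjusted p under 0.05. Its median, female minus male, was -0.04 with the apart libraries and -0.08 without them, where no member passed either.

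Lithium against vehicle in WT mice gave the largest member count of the comparisons, and that count differed with the vehicle libraries that entered. Over all libraries 62 of 83 members were higher and 3 lower under lithium, with a median of 0.25, in a comparison where 18.6% of all tested genes were higher and 17.5% lower. All 4 complex II genes and 8 of 9 complex III genes were among the 62, and Atp5s, Cox6b2 and Ndufc2 were lower. Within set 2, where 8 lithium libraries meet 5 vehicle libraries, 6 members were higher and none lower (0.430% and 0.234% of all tested genes), with a median of 0.15 and 79 of 83 positive. Without the 2 apart libraries the within-set median was 0.07, 74 of 83 members were positive and none passed in limma (0.117% of all tested genes were higher and 0.0502% lower, and 17 members had an unadjusted p under 0.05). Over all libraries without those 2, 50 members were called, 46 higher and 4 lower, against 25.0% of all tested genes in either direction.

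Atp5e, the epsilon subunit of the ATP synthase rotor, shows the dependence on the vehicle libraries. Its normalized values ran from 1498 through a median of 1646 to 2087 in WT lithium, from 1297 through 1357 to 1439 in WT vehicle of set 2, and from 691 through 936 to 1363 in WT vehicle of set 3. The lithium libraries lay above all vehicle libraries, and set 3 vehicle overlapped set 2 vehicle only in its highest values. The log2 difference was 0.70 ± 0.10 over all libraries (adjusted p = 9.07e-07) and 0.32 ± 0.08 within set 2 (adjusted p = 0.0372). Without the apart libraries it was 0.60 ± 0.11 (adjusted p = 1.94e-04) and 0.22 ± 0.08 (adjusted p = 0.395). For Sdhd, a membrane anchor of complex II, the ranges were 2151 to 2707 under lithium, 1983 to 2156 in set 2 vehicle and 1417 to 2070 in set 3 vehicle. Its differences were 0.39 ± 0.05 over all libraries (adjusted p = 7.14e-07) and 0.20 ± 0.05 within the set (adjusted p = 0.0384). Ndufb9, an accessory subunit of complex I, had 3401 to 4503 under lithium and 3181 to 3439 in set 2 vehicle, with a within-set difference of 0.26 ± 0.07 (adjusted p = 0.0456). Atp5o (0.16), Atp5h (0.19) and Ndufs5 (0.26) were the other 3 members higher within the set. Without the apart libraries the within-set differences were 0.15 for Sdhd, 0.21 for Ndufb9, 0.11 for Atp5o, 0.10 for Atp5h and 0.17 for Ndufs5, and none of them passed. The leading genes of the remaining complexes over all libraries, Cox4i1 at 0.46 ± 0.07 (adjusted p = 3.04e-06) and Cyc1 at 0.34 ± 0.06 (adjusted p = 1.30e-05), did not pass within the set. Without the apart libraries they were at 0.41 and 0.33 over all libraries, where both passed, and at 0.12 and 0.092 within the set.

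In HT mice lithium against vehicle called none of the 83 members in limma, edgeR or DESeq2 (1.03% of all tested genes were higher and 0.491% lower in limma, and 8 members had an unadjusted p under 0.05). The median was 0.03, and within set 2, where no member passed either (0.123% of all tested genes were higher and 0.0391% lower, and 1 member had an unadjusted p under 0.05), 46 members were negative and 37 positive. Sdhd, for example, ran from 1871 through 2126 to 2286 in HT lithium and from 2036 through 2083 to 2230 in HT vehicle of set 2, nested ranges. Over the vehicle libraries of all sets its log2 difference was 0.12 ± 0.05 (adjusted p = 0.217). Within set 2 the differences of the 4 complex II genes, Sdhd among them, ran from -0.06 to 0.01.

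The difference of the lithium effects, HT minus WT, was tested as an interaction and uses the same WT lithium and vehicle libraries. Over all libraries 30 members were lower and none higher (1.65% and 1.15% of all tested genes), with a median of -0.23. They were 14 of complex I, 2 of complex II, 4 of complex III, 4 of complex IV and 6 of complex V, led by Ndufs5 (-0.41 ± 0.09, adjusted p = 0.0118), Sdhb (-0.26 ± 0.06, adjusted p = 0.0173), Uqcrh (-0.39 ± 0.09, adjusted p = 0.0260), Cox4i1 (-0.39 ± 0.09, adjusted p = 0.0253) and Atp5k (-0.66 ± 0.14, adjusted p = 0.0130). Within set 2 no member passed in limma (0% of all tested genes did, and 27 members had an unadjusted p under 0.05), with a median of -0.16 and 79 of 83 members negative. Without the 2 apart libraries limma called 0% of all tested genes and no member over all libraries (median -0.17, 44 members at an unadjusted p under 0.05) or within the set (median -0.09, 5 members). The leading genes were then at -0.32 for Ndufs5, -0.19 for Sdhb, -0.28 for Uqcrh, -0.35 for Cox4i1 and -0.56 for Atp5k over all libraries. Without WT lithium male replicate 2 alone 0 members were called in place of 30, and 1 without HT lithium female replicate 3. For these fits the share of all tested genes is not given, so whether the fall is particular to the members is not shown.

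**Figure D4:**
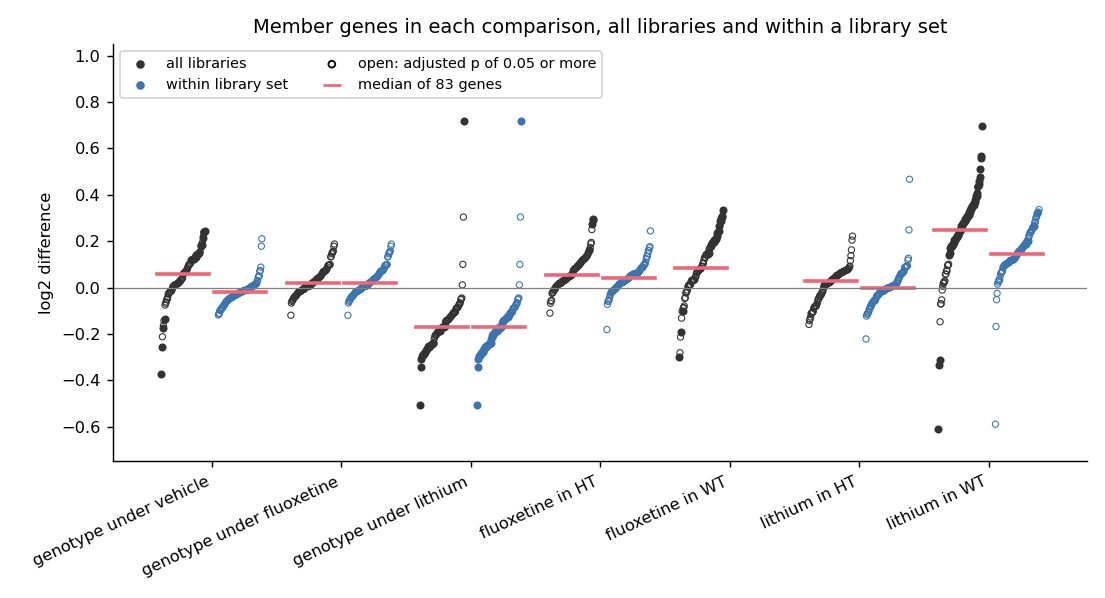
Each point is a member gene, placed by comparison on the x axis and by its log2 difference on the y axis, over all libraries (dark) and within a library set (blue), filled where the adjusted p was under 0.05, with a red line at the median of the 83 genes. Genotype under lithium has the same differences in both, because all lithium libraries are in set 2, while lithium in WT has 0.25 over all libraries and 0.15 within the set, and fluoxetine in WT has no within-set value.

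Under vehicle, HT against WT gave 12 members higher and 4 lower over all libraries, against 7.74% and 7.21% of all tested genes, with a median of 0.06. The leading genes were Ndufv2, a core iron-sulfur subunit of complex I (-0.26 ± 0.05, adjusted p = 6.94e-04), Sdhc (0.18 ± 0.06, adjusted p = 0.0275), Uqcr10 (0.24 ± 0.07, adjusted p = 0.0190), Cox4i1 (0.18 ± 0.06, adjusted p = 0.0207) and Atp5a1, the catalytic-domain alpha subunit (0.13 ± 0.04, adjusted p = 0.0168). Within set 2, with 6 HT and 5 WT libraries, no member passed in limma (0.463% of all tested genes were higher and 0.0725% lower, and 1 member had an unadjusted p under 0.05). The within-set median was -0.02, and the differences ran from -0.12 to 0.21. Over all libraries 2 members were lower and none higher in females (0.586% and 1.17% of all tested genes), and 1 was lower and 2 higher in males (1.29% and 2.92%). In the same comparison 7 of 13 mitochondrially encoded subunits were lower (median -0.28) and 21 of 82 cytosolic ribosomal protein genes higher (median 0.09), and within the set none of either list passed.

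The 10 WT vehicle libraries of set 3 differed from the 5 of set 2 in many members. Because the sets were drawn from these data, the differences are given without a test. Of the 83 members 59 were lower in set 3 and 24 higher, with a median of -0.15. Ndufc2, an accessory subunit of the complex I membrane arm, had 1611 to 1915 normalized reads in set 3 (median 1684) and 1022 to 1093 in set 2 (median 1029), a log2 difference of 0.72 ± 0.07 with no overlap. In HT vehicle the 2 set 3 libraries had 1494 and 1719, and the 6 of set 2 had 960 to 1120. Ndufv2 was also higher, with 2635 to 3628 in set 3 against 2170 to 2498 in set 2. In the other direction Cox4i1 had 7592 to 10938 in set 3 and 11496 to 12333 in set 2, and Cyc1 2752 to 4046 against 4161 to 4384, both without overlap. All 4 complex II genes were lower in set 3, from -0.17 for Sdhb to -0.37 for Sdhc. By contrast, 12 of 13 mitochondrially encoded subunits were higher in set 3 with a median of 0.43, and the median over all tested genes was 0.01. Beside these values, all 8 olfactory bulb genes were higher in set 3 (median 2.70), all 10 striatal genes lower (median -1.21) and all 8 myelinating oligodendrocyte genes lower (median -0.78). Whether any of these lists bears on the members' differences was not tested.

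**Figure D5:**
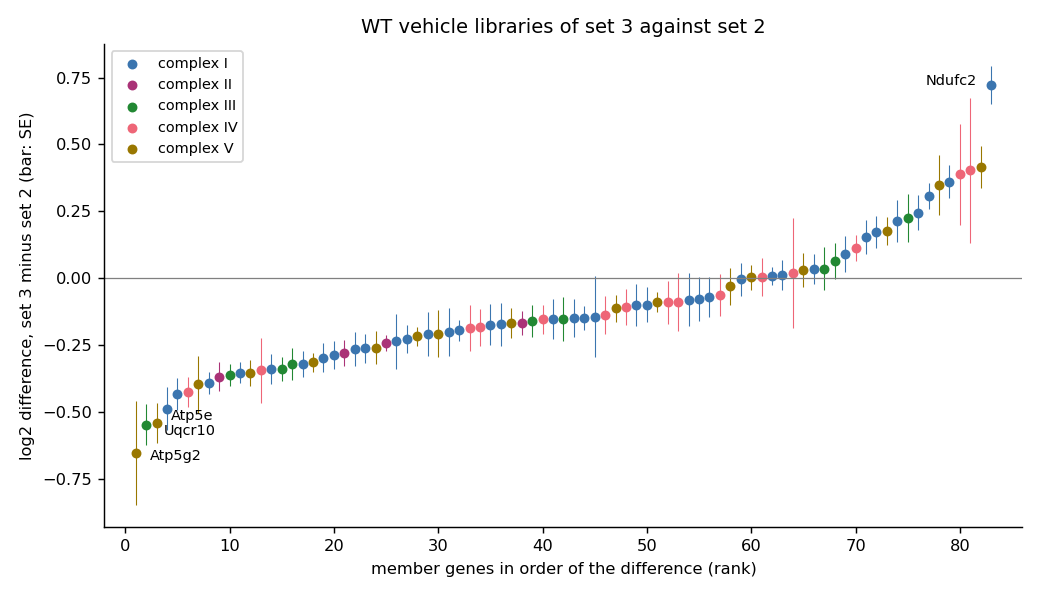
Each point is a member gene in order of its log2 difference between WT vehicle libraries of set 3 and set 2, coloured by complex, with its standard error as a bar. The 59 lower and 24 higher members run from -0.65 for Atp5g2 to 0.72 for Ndufc2, and members of every complex except II lie on both sides of 0.

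Fluoxetine against vehicle in HT mice gave 4 members higher and none lower over all libraries, against 0.407% and 0.809% of all tested genes, with a median of 0.05. They were the complex I accessory subunits Ndufa5 and Ndufb3, the complex III subunit Uqcrb and Atp5c1, the gamma subunit of the ATP synthase rotor. Ndufa5 had 1192 to 1591 normalized reads in HT fluoxetine (median 1346), 1164 to 1399 in HT vehicle of set 1 (median 1214) and 934 to 1066 in HT vehicle of set 2 (median 1027). The fluoxetine libraries overlapped the vehicle libraries of their own set and not those of set 2. The difference was 0.29 ± 0.06 (adjusted p = 0.00331), and Uqcrb gave 0.30 ± 0.07 (adjusted p = 0.0202) and Atp5c1 0.16 ± 0.04 (adjusted p = 0.0310). Within set 1, with 10 fluoxetine and 8 vehicle libraries, no member passed in limma (0.0335% of all tested genes were higher and 0.134% lower), 10 members had an unadjusted p under 0.05, and the median was 0.04.

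In WT mice 23 members were higher and 3 lower under fluoxetine, against 3.14% and 2.29% of all tested genes, with a median of 0.08. No set holds both sides, so set and drug cannot be told apart here. The leading genes were Ndufs5 (0.29 ± 0.06, adjusted p = 0.00416), Sdhc (0.26 ± 0.07, adjusted p = 0.0158), Uqcrc1, a core protein of complex III (0.18 ± 0.05, adjusted p = 0.0245), Cox7c (0.30 ± 0.08, adjusted p = 0.0210) and Atp5g3 (0.23 ± 0.06, adjusted p = 0.0146), and Ndufa10, Ndufc2 and Ndufv2 were lower. For Ndufc2 the fluoxetine libraries ran from 1013 to 1358, below every set 3 vehicle library and across the set 2 range. In the same comparison 35 of 82 cytosolic ribosomal protein genes were higher and 5 of 13 mitochondrially encoded subunits lower. With only WT fluoxetine and WT vehicle libraries in the fit, 2 members were called in place of 26. That fit has fewer libraries to estimate the spread, and its share of all tested genes is not given. Whether the fall is particular to the members is therefore not shown.

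Under fluoxetine HT and WT libraries, all of set 1 with 10 on each side, had no member called by limma, edgeR or DESeq2 (1.33% of all tested genes were higher and 0.653% lower in limma). The median was 0.02, 5 members had an unadjusted p under 0.05, and the smallest p of complex I was that of Ndufa10 (0.07 ± 0.03, adjusted p = 0.294). The difference of the fluoxetine effects between genotypes called 0 members in limma (0% of all tested genes) and edgeR and 1 in DESeq2, with 18 members at an unadjusted p under 0.05 in limma, and compares libraries of different sets. Its leading gene was Ndufc2 at 0.55 ± 0.13 (adjusted p = 0.158).

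Across libraries most members varied together. After each library's deviation from the mean of its group and set was taken, the correlation of a member with the mean of the other members had a median of 0.68 over 68 libraries, and 62 of 83 members lay above 0.5. These are descriptions with no test, since all points share the library's scaling. The same correlation was not computed for other genes, so whether it is particular to the members is not shown. The highest values belonged to complex IV, with Cox7a2 at 0.90, Cox7b at 0.88 and Cox6b1 at 0.86. The lowest were those of Cox6b2 (0.10), Ndufs1, the largest core subunit of complex I (0.13), Ndufv2 (0.19) and the low isoforms Ndufa4l2 and Cox7a1 (both 0.20). Without the 2 apart libraries the median was 0.66 over 66 libraries and 57 members lay above 0.5, while Ndufs1 was at -0.10 and Ndufv2 at 0.01. By complex the medians over 68 libraries were 0.68 for I, 0.62 for II, 0.76 for III, 0.71 for IV and 0.65 for V.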

How the data were processed

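RNA of mouse prefrontal cortex was sequenced from polyadenylated, strand-marking libraries, per the labels' protocols. The submitters' processing notes name Salmon 0.11.2, R 3.6.0, DESeq2 1.19.11 and GRCm38 without roles. The sources used here do not give the annotation release or whether strand was used. The authors deposited 1 table whose values are a signal, gene counts divided by a factor per library: 100% of values became whole numbers, within 0.01, when each column was multiplied back. The value of 1 read could be read directly in 60 of 68 columns, and the depth of the other 8 is less certain. Because the tool may share reads between near-identical copies, values of such copies are uncertain, as are those of overlapping and antisense genes.

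Members were found by symbol in GENCODE vM21. The members and lists were chosen with earlier results of these data known. Values were tested as log2(value + 1) with limma 3.58.1 (R 4.3.3) over 17922 genes, with 12 groups in 1 fit, sexes averaged, and Benjamini-Hochberg adjustment. Fold changes on this scale understate those of low genes. The percentages of all tested genes are at the adjusted threshold. Member counts at an unadjusted p, with single libraries left out or with only the groups compared stand without such a share. Within-set fits used group and library set together. Library sets came from average linkage on 361 pseudogenes. The set fits and those without the apart libraries were added after the data were seen. Alternatives were edgeR 4.0.16 and DESeq2 1.42.0 on recovered counts, TMM scaling, a pseudocount of 0.5, no filter on low values, only the groups compared, a replicate block and each library left out. The fit for genotype under lithium was also run on simulated counts. Those were drawn independently for each gene, without library sets or outlying libraries, and cannot show how such features move the counts. In each comparison the text names the member of each complex with the smallest p, and further members that passed. Others (the isoforms, Atp5e, Ndufc2 and Cox6b2 among them) were chosen after their values were seen. Lengths are those of GENCODE transcripts.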

Additional observations from a re-analysis of the deposited data

Results flagged for a closer look

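Mean levels and named members were examined by group for a library far from the rest. WT lithium male, with 3 libraries, was too small to be examined. Chance gives about 1 in 20 for independent groups, but these groups share libraries and genes. Of 81 such groups, 7 had a library far from the rest. WT lithium female replicate 5 accounts for 5 of them: its mean level of all members was 11.192 with the next WT lithium female at 10.968, and that of complex III was 11.862 with the next at 11.639. Its Sdhb value was 3554.3 (next 2936.5), Uqcrh 4268.8 (next 3351.4) and Cox6b1 6279.4 (next 5318.6). WT fluoxetine male replicate 3 had a complex III mean level of 11.62 with the next at 11.537. HT lithium male replicate 1 had the lowest Ndufs5 value of its group, 1365.6, with the next at 1526.9.

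The lithium effect differed between the genotypes by the test of the interaction over all libraries in 30 members. The differences were -0.41 for Ndufs5, -0.26 for Sdhb, -0.39 for Uqcrh, -0.39 for Cox4i1 and -0.66 for Atp5k. None of the 30 passed within library set 2 or without the 2 WT lithium libraries that stand apart.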

How the results depend on the processing

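Within a library set the count was 0 in place of 16 for genotype under vehicle, 42 in place of 22 for genotype under lithium, 0 in place of 4 for fluoxetine in HT, 6 in place of 65 for lithium in WT and 0 in place of 30 for the lithium interaction. Without both apart libraries it was 0 for genotype under lithium and 0 for the interaction, and within the set as well 2 for genotype under lithium, 0 for lithium in WT and 0 for the interaction. With only the groups compared it was 3 for genotype under vehicle, 2 (in place of 26) for fluoxetine in WT, 1 (in place of 0) for lithium in HT and 0 for the interaction. DESeq2 called 1 member in the fluoxetine interaction, where limma called 0. Genotype under vehicle changed sign within the set for Uqcr10 (-0.044), Cox4i1 (-0.045) and Atp5a1 (-0.0074). Of 1845 alternative values of named members, 1742 kept direction and side of the threshold, 92 no longer passed, 8 newly passed and 3 changed sign. The cause was not tested. Counts in this section are of members only, without the share of all tested genes in the same setting.

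With the replicate number as a replicate block, counts were 42 for fluoxetine in WT, 22 for lithium in HT and 1 for the fluoxetine interaction, and 39 for the lithium interaction. The numbers do not pair the libraries: same-numbered libraries had a median correlation of -0.005, 72 of 313 such pairs exceeded 0.1, and 8 of 68 libraries correlated best with their own number.

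With each library left out in turn, counts ran from 8 to 30 for genotype under vehicle, 2 to 26 for genotype under lithium, 1 to 8 for fluoxetine in HT, 9 to 37 for fluoxetine in WT, 54 to 67 for lithium in WT, 0 to 44 for the lithium interaction and 0 to 1 for the fluoxetine interaction, and stayed at 0 for genotype under fluoxetine, lithium in HT and the sex difference. Leaving out one of the following moved the count by over 1.5 times. Genotype under vehicle gave 28 without HT vehicle male replicate 1, 29 without 2, and 10, 10, 8, 30 and 26 without WT vehicle male replicates 1, 2, 5, 6 and 7. Fluoxetine in HT gave 7, 1 and 2 without HT fluoxetine female replicates 1, 2 and 3, 2 without male replicate 4, and 8, 2 and 2 without HT vehicle female replicates 4, 7 and 8. Fluoxetine in WT gave 9 and 13 without WT fluoxetine female replicates 2 and 5, 13 and 13 without male replicates 3 and 4, 15 and 12 without WT vehicle female replicates 4 and 5, and 15, 12 and 14 without male replicates 1, 2 and 5. The lithium interaction gave 1 without HT lithium female replicate 3, 8 and 19 without HT lithium male replicates 1 and 2, 15 without HT vehicle female replicate 1, 10, 15 and 16 without HT vehicle male replicates 3, 6 and 7, 16 and 4 without WT lithium female replicates 1 and 5, 0 without WT lithium male replicate 2, 14 and 10 without WT vehicle female replicates 1 and 5, and 13, 11 and 9 without male replicates 1, 2 and 5. The fluoxetine interaction gave 1 without WT vehicle male replicate 7. Depth limits the low isoforms Cox4i2, Cox6b2 and Cox7a1 most.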
